A study of Mus musculus with 6 samples.

Results

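The 38 genes described here are those of DNA synthesis and mitosis, from the replication licensing genes Mcm2 to Mcm7 to the mitotic kinases and spindle proteins. They were taken from the deposited count table by symbol, through the Ensembl gene ID, and all 38 were found among the 53715 genes listed. Polyadenylated RNA had been sequenced from the livers of F1 males aged 8 weeks and of strain ICR (outbred), as 3 control F1 and 3 FR F1 libraries. FR F1 males were offspring whose own label gives paternal famine as the stress, whereas the title of the series names an overdiet and FR is not spelled out, so the labels' names are used here. No genotype, agent, diet composition or time of collection is given for either group, and whether each library came from a separate animal is not stated, so p-values measure the spread between these samples only. Library totals ranged from 2279755 to 2730160 counts, and 13022 genes had enough counts to be tested. All 11 hepatocyte markers were tested, and their summed level was 4708 to 6129 CPM (counts scaled to library size with TMM factors) across the libraries. This was above the sum of each other cell type list in every library, and the most counted of the 11 had 13268 counts in all. Whether such levels are usual for liver was not tested.

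Adult hepatocytes are mostly quiescent, and the young adult mouse liver holds few dividing cells, among them hepatocytes completing growth, Kupffer cells, endothelial cells and lymphocytes. In dividing cells, E2F factors switch on licensing and nucleotide supply genes before S phase. The MuvB complex with B-MYB and FOXM1 then switches on the cyclin B, kinase and spindle genes of G2 and M phase. In quiescent cells the DREAM complex represses both sets, through E2F sites in S phase promoters and through a CHR element in G2 and M phase promoters, where NF-Y binds nearby CCAAT boxes.

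The promoters were searched for the letters of these elements, which the choice of members did not use. RefSeq promoter windows of GRCm38.p6, from 250 bases before to 50 bases after the annotated start, were found for 31 of the 38 genes, with the first listed window used for each gene. Of 19 G2 and M phase genes, 17 (89.5%) held a CHR match (TTTGAA or TTTAAA on either strand), against 27.8% of all 27025 windows. A CCAAT match on either strand was found in 17 of the 19 (89.5%), against 37.9% of all windows, and 16 of the 19 (84.2%) held both, against 10.9%. Of the 12 S phase genes and factors, 3 held a CHR match, 8 (66.7%) a CCAAT match and 8 (66.7%) an E2F match, against an E2F match in 9.69% of all windows and in 3 of the 19 G2 and M phase genes. The E2F letters searched, on either strand, were TTCCCGC or TTGGCGC or TTCGCGC or TTGCCGC, and such matches can overlap each other. Nusap1, E2f1 and Tyms held no match of any kind. These matches are descriptions of the windows, and binding was not measured.

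Promoters of Ccnb2, Aurka and Mcm6 are shown because these were the tested genes whose 95% interval of the fold change left out 0 and which have a window in the RefSeq table. Capitals mark the CCAAT, CHR and E2F matches, and all 3 genes lie on the minus strand.
Ccnb2 (chr9:70421505-70421804): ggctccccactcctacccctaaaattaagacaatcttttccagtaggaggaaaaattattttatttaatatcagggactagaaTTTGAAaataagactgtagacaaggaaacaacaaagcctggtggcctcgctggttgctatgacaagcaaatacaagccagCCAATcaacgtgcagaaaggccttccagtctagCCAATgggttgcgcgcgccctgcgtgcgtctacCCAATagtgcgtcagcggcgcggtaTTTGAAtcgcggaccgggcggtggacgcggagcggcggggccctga
Aurka (chr2:172370521-172370820): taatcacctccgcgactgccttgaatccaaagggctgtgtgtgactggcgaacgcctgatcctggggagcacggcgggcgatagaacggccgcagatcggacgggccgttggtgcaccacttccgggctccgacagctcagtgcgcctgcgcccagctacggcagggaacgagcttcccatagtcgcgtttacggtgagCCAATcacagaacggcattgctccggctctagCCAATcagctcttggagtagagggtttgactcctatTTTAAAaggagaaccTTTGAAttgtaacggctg
Mcm6 (chr1:128359656-128359955): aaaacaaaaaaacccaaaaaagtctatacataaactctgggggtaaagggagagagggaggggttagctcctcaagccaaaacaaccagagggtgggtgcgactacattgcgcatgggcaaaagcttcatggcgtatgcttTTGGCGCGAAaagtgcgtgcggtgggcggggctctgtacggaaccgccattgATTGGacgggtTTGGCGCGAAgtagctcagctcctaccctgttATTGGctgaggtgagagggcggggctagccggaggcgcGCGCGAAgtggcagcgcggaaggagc
Ccnb2 held 3 CCAAT boxes spaced by 33 bases, starting at -87, -54 and -21 from the annotated start, and a TTTGAA match at -167 and at 5. Aurka held 2 CCAAT boxes, 32 bases apart, and the CHR matches TTTAAA and TTTGAA at bases 18 and 33. Mcm6 held no CHR match but 5 E2F matches, 4 of them as overlapping pairs within TTGGCGCGAA, and 2 reversed CCAAT boxes. Ccnb2 and Aurka carried the same kinds of match, with log2 fold changes of -2.20 and 0.78 (edgeR adjusted p = 0.123 and 0.207). Both were picked by the intervals of these fold changes, and neither passed the adjusted threshold. Whether the matches bear on the fold changes was not tested.

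The proliferation genes were scarce in all 6 livers. Together they took 5458 counts, 0.0362% of all counts, and Gins2 alone gave 21.8% of these. The median total over the 6 libraries was 74.5 counts a gene, 22 genes had fewer than 100, and Bub1 had 11. A count was present in every library for 37 genes, the exception being Bub1, the spindle checkpoint kinase, with 4, 2 and 1 counts in the control and 4, 0 and 0 in the FR F1 libraries. A count of 0 allows up to 1.11 CPM in FR replicate 2 and 1.23 CPM in FR replicate 3 (a limit of 3 counts, counting error only).

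Scaled to length, S phase genes stood above G2 and M phase genes. The median level was 2.21 CPM per kilobase of annotated exon over the 15 S phase genes and factors and 0.654 over the 23 G2 and M phase genes. Gins2, a subunit of the GINS part of the replicative helicase, had the highest level at 19.6 CPM per kilobase, followed by Pcna, the sliding clamp of DNA polymerases, at 12.1 and Mcm7 at 10.1. Only Gins2 and Pcna exceeded the median level of the genes tested, at its 69.0th and 55.3rd percentiles. Aurka, the spindle pole kinase, led the G2 and M phase genes at 4.43 CPM per kilobase, and Kif20a, a kinesin of the central spindle, had 3.59. At the other end were Cenpf, a large kinetochore protein, at 0.0966, Bub1 at 0.173 and Cenpe, a kinetochore motor, at 0.215. The control F1 and FR F1 ranges were separate for Aurka, Ccnb2, Mcm6 and Mcm7 and overlapped for all other genes.

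**Figure D1:**
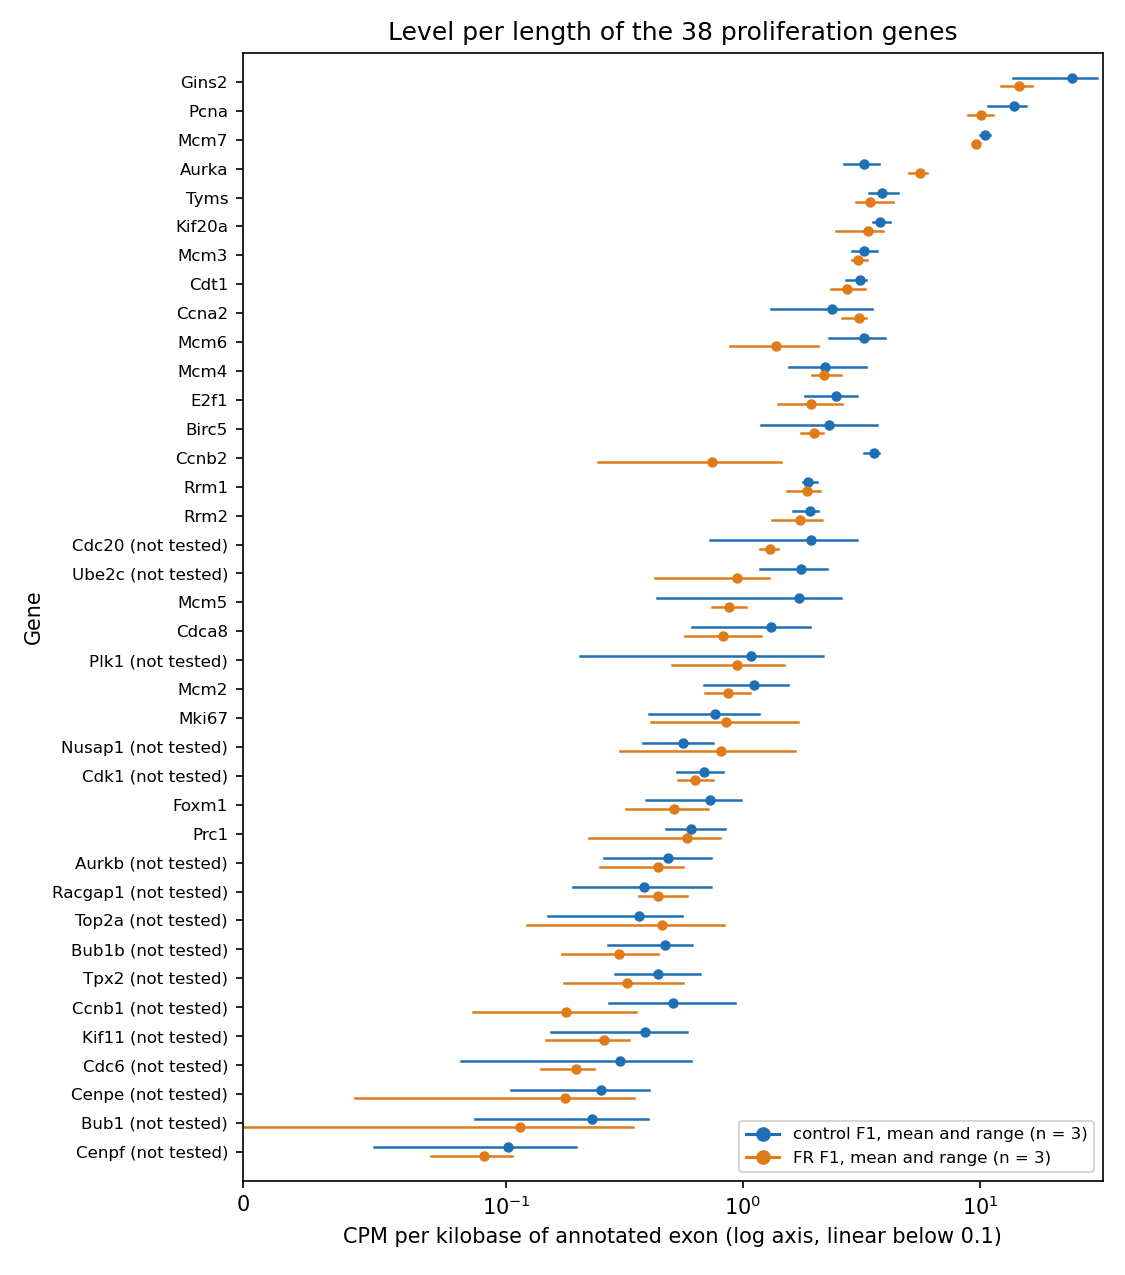
CPM per kilobase of annotated exon for the 38 genes on a log axis that is linear below 0.1, with the mean (point) and range (line) of 3 control F1 (blue) and 3 FR F1 (orange) libraries. Levels run from 0.0966 for Cenpf to 19.6 for Gins2, and genes with too few counts to test are marked.

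Between FR F1 and control F1 livers 0 of the 22 genes with enough counts passed the test (quasi-likelihood test of edgeR, adjusted over 13022 genes by Benjamini-Hochberg, threshold 0.05, 3 libraries a group), where 0.837% of all tested genes did, 0.392% higher and 0.445% lower in FR F1. DESeq2 and limma-voom also called 0, where they called 423 and 103 genes in all. Limma-voom with sample weights called 2, Ccnb2 and Mcm6, where it called 1199 of all 13022 genes. At an unadjusted p under 0.05 there were 4 (Ccnb2, Mcm6, Aurka and Gins2), 3 of them lower, where 17.9% of all tested genes were below that level. The groups did not overlap in 4 of the 22, with FR F1 above in 1 and below in 3, where 25.7% of all tested genes did not overlap (12.5% above and 13.2% below). Ccnb2, among these, had enough counts for the test only through its control libraries. Log2 fold changes were negative in 19 of the 22, with a median of -0.17, while 50% of all tested genes were negative, with quartiles of -0.24 and 0.32. None of the 22 passed, and in bulk tissue a difference in the number of dividing cells cannot be told apart from one in RNA per cell. The 95% interval lay within a 2-fold change either way for 9 of the 22 genes, and reached past it for the rest. The highest level among the 38 genes was in control replicate 1 for 15 genes and in FR replicate 3 for 0, and the lowest was in FR replicate 2 for 13.

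**Figure D2:**
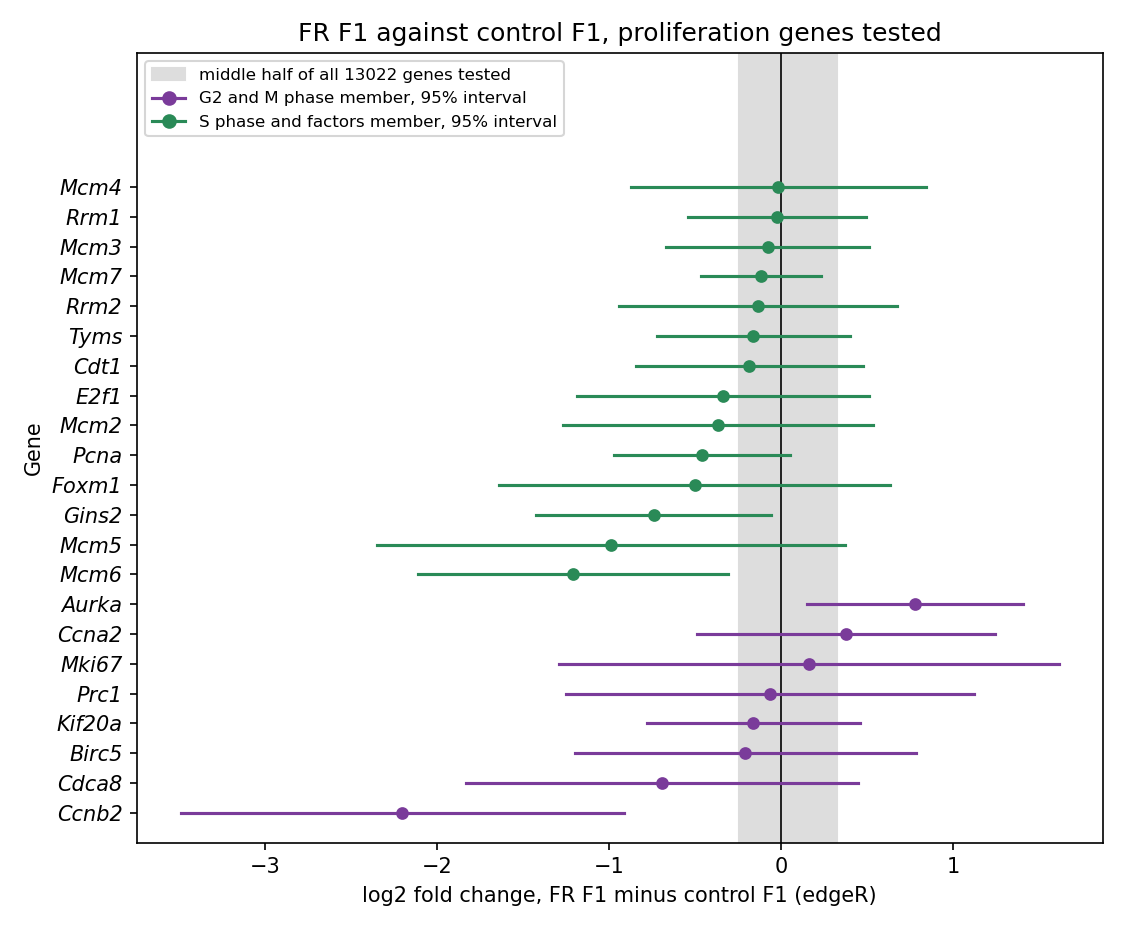
Log2 fold change of FR F1 minus control F1 with its 95% interval (edgeR) for the 22 genes tested, G2 and M phase in purple and S phase genes and factors in green, with the quartile range of all 13022 tested genes, -0.24 to 0.32, in grey. Intervals of Ccnb2, Mcm6, Gins2 and Aurka leave out 0, and none of the 22 passed the adjusted threshold.

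Among the mitotic cyclins, Ccnb2, which encodes cyclin B2 (ENSMUSG00000032218.7, mm10 chromosome 9, 70407692 to 70421547), was counted 13, 11 and 15 times in the control libraries and 1, 6 and 2 in the FR F1 libraries (replicates 1, 2 and 3, in that order here and throughout). Every FR F1 library lay below every control F1 library. In CPM this was 5.45 ± 0.430 against 1.14 ± 0.958 (mean ± SD over 3 libraries), and the log2 fold change was -2.20 ± 0.56 (SE, edgeR adjusted p = 0.123). The log2 fold change was -1.78 without FR replicate 1 and -3.11 without FR replicate 2. Across the other settings its adjusted p lay between 0.0143 and 0.351, and it was below 0.05 without a filter on low counts and with limma-voom sample weights. Ccnb2 had enough counts for the test only through its control libraries, while Cdk1, also with 48 counts in all, was not tested. With a filter blind to the groups (30 counts in all), the adjusted p of Ccnb2 was 0.131 (edgeR).

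Ccnb1, which encodes cyclin B1, the main mitotic partner of CDK1, had too few counts for the test, with 9, 3 and 3 in control and 4, 1 and 1 in FR replicates 1 to 3. The pooled FR F1 to control F1 ratio was 0.367 with a 95% interval of 0.117 to 1.002 (exact, counting error only), and the groups overlapped. Ccna2, which encodes cyclin A2 of S and G2 phase, had 33, 21 and 14 counts in control and 36, 29 and 33 in FR replicates, with a log2 fold change of 0.38 ± 0.38 (edgeR adjusted p = 0.609). The kinase gene Cdk1 itself had 6, 9 and 9 counts against 7, 8 and 9, a pooled ratio of 0.918 with an interval of 0.4995 to 1.69. The 3 cyclin genes therefore did not share a direction of their values, and the Cdk1 interval held 1.

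Aurka (ENSMUSG00000027496.15, chromosome 2, 172356190 to 172370535) alone of the 22 proliferation genes tested had every FR F1 library above every control F1 library. Of all tested genes, 12.5% did. Its counts were 22, 15 and 22 in control and 34, 41 and 36 in FR replicates, or 8.25 ± 1.40 and 14.2 ± 1.30 CPM. The log2 fold change was 0.78 ± 0.27 with an interval of 0.15 to 1.40 (edgeR adjusted p = 0.207), and the other settings gave 0.65 to 0.90. The related kinase Aurkb, of the chromosome passenger complex, had 5, 3 and 2 counts in control and 4, 2 and 4 in FR replicates and was not tested. Plk1, the polo-like kinase of mitotic entry, had 11, 1 and 5 against 5, 3 and 8 and was not tested either. The summed level of the 7 cyclin and kinase genes was 26.8 to 42.9 CPM in control and 33.2 to 38.2 CPM in FR libraries, so the groups overlapped.

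None of the 4 genes of the spindle checkpoint and anaphase had enough counts to test. Cdc20, the activator of the anaphase promoting complex, had 13, 3 and 10 counts in control and 7, 6 and 6 in FR replicates. Ube2c, the ubiquitin conjugating enzyme of that complex, had 11, 13 and 8 against 9, 3 and 7, a pooled ratio of 0.545 with an interval of 0.292 to 0.992, and the groups overlapped. Bub1b, which encodes the checkpoint protein BUBR1, had 6, 5 and 3 against 5, 2 and 3. Summed over the 4 genes there were 79 counts in the control and 52 in the FR F1 group.

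Mki67, the gene of the proliferation antigen Ki-67 (ENSMUSG00000031004.8, chromosome 7, 135689784 to 135716361), had 27, 9 and 19 counts in control and 46, 12 and 10 in FR libraries. FR replicate 1 was the highest of the 6 libraries at 17.2 CPM, and the other FR F1 libraries, at 4.42 and 4.10 CPM, lay near the lowest control. The log2 fold change was 0.16 ± 0.63 with an interval of -1.29 to 1.61 (edgeR adjusted p = 0.907), and it was -0.83 without FR replicate 1. Top2a, the topoisomerase that untangles replicated chromosomes, was likewise highest in FR replicate 1, with 8, 3 and 13 counts in control and 20, 3 and 9 in FR replicates. So was Nusap1, a spindle microtubule protein, with 7, 5 and 4 against 18, 5 and 3. For all 3 genes the other FR F1 libraries lay within or below the control range.

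The passenger complex genes Birc5, which encodes survivin, and Cdca8, which encodes borealin, were tested. Birc5 had 29, 9 and 18 counts in control and 16, 19 and 18 in FR replicates, a log2 fold change of -0.21 ± 0.43. Cdca8 had 17, 7 and 26 against 10, 8 and 15, a log2 fold change of -0.69 ± 0.50 (edgeR adjusted p = 0.477). Cenpe and Cenpf had 28 and 22 counts in all. Summed over this group of 6 genes with Mki67 and Top2a, levels were 40.3, 14.4 and 33.4 CPM in control and 38.9, 17.0 and 24.2 CPM in FR libraries. Replicate 2 was the lowest of each group, and the groups overlapped.

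Of the 6 genes of the spindle and cytokinesis, Kif20a and Prc1 were tested. Kif20a had 37, 34 and 47 counts in control and 44, 46 and 26 in FR replicates, a log2 fold change of -0.16 ± 0.27. Prc1, which bundles the microtubules of the central spindle, had 9, 9 and 18 against 16, 5 and 16 and a log2 fold change of -0.07 ± 0.52. Kif11, the motor that separates spindle poles, had 35 counts in all libraries, Tpx2, a spindle assembly factor and AURKA activator, had 27, and Racgap1, a cytokinesis regulator, had 43. Taken over the 16 untested genes of all groups, the pooled ratio was below 1 in 13 and above 1 in 3, from 0.367 for Ccnb1 to 1.49 for Nusap1. Its interval, for counting error only, held 1 in 15 of the 16, Ube2c being the exception.

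**Figure D3:**
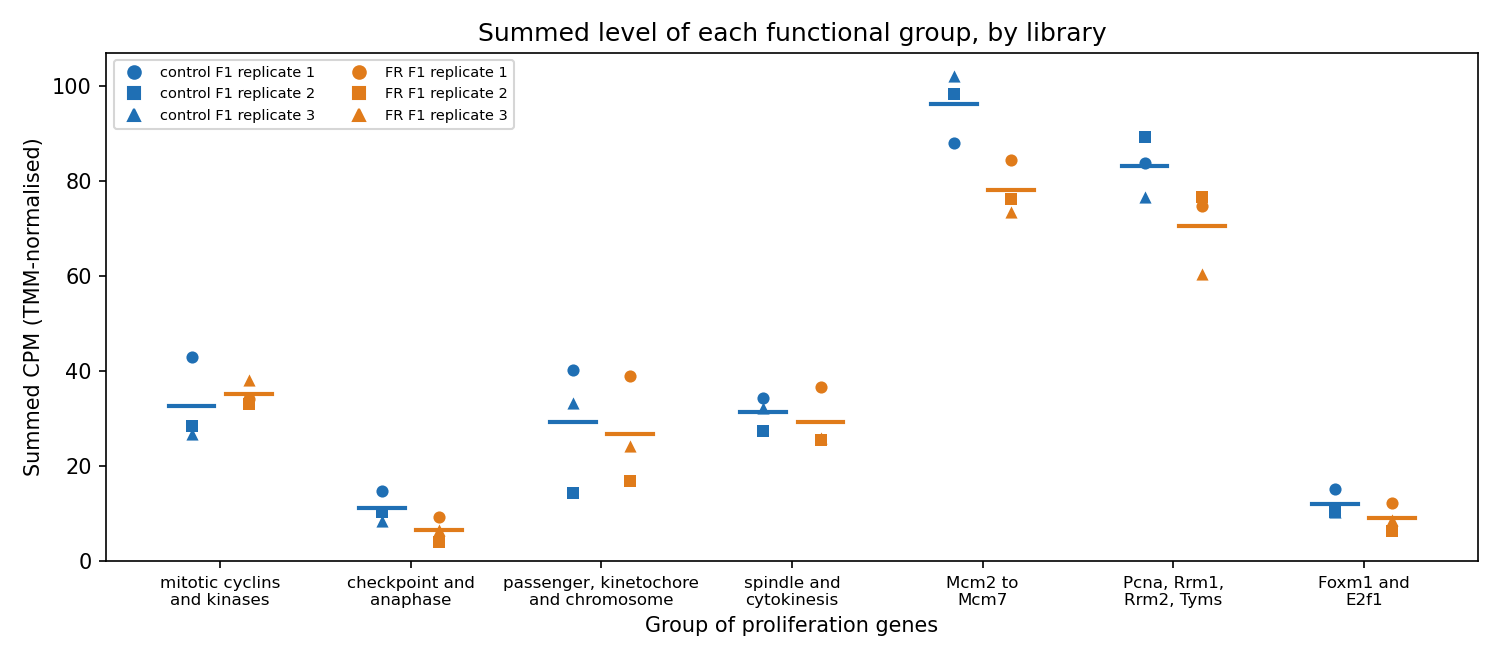
Summed TMM-scaled CPM of 7 groups of proliferation genes in each library, control F1 blue and FR F1 orange, with a marker for each replicate number and bars for group means; Cdc6, Cdt1 and Gins2 are not in these groups. The Mcm2 to Mcm7 sums do not overlap, at 88.0 to 102 CPM in control and 73.4 to 84.5 CPM in FR libraries. Of these sums, Mcm6 alone gave 10.7 to 18.5 CPM in control and 4.10 to 9.72 CPM in FR libraries. Singly, Mcm6 and Mcm7 were separate and Mcm2 to Mcm5 overlapped, where 25.7% of all tested genes did not overlap.

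The genes of replication licensing had negative fold changes in all 8 that were tested in the main edgeR fit, and none passed. MCM2 to MCM7 proteins form the hexamer loaded on DNA before S phase as the core of the helicase. Mcm6 (ENSMUSG00000026355.11, chromosome 1, 128331590 to 128359664) had 37, 41 and 28 counts in control and 26, 15 and 10 in FR replicates. Each FR F1 library lay below each control F1 library in CPM, at 6.45 ± 2.92 against 15.1 ± 3.96 CPM. Its log2 fold change was -1.21 ± 0.39 with an interval of -2.11 to -0.31 (edgeR adjusted p = 0.183), and the other settings gave it an adjusted p between 0.0466 and 0.408. It was -0.97 without FR replicate 3 and -1.62 without FR replicate 1.

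The other 5 subunits differed less or were less even. Mcm5 had 4, 19 and 27 counts in control and 9, 8 and 10 in FR replicates, a log2 fold change of -0.99 ± 0.59 (edgeR adjusted p = 0.400), and control replicate 1 was the lowest of all libraries. Its value was -1.44 without control replicate 1 and -0.56 without control replicate 3. Mcm2 had 11, 17 and 28 against 20, 13 and 14, a log2 fold change of -0.37 ± 0.39. For Mcm3 and Mcm4 the values were -0.08 ± 0.26 and -0.02 ± 0.37. Mcm3 had 25, 26 and 36 counts in control and 29, 34 and 27 in FR replicates. Mcm7, the most counted subunit, had 113, 101 and 116 against 117, 118 and 100 counts, and its interval of -0.46 to 0.23 was the narrowest of the 22. Although the hexamer holds equal parts of its subunits, Mcm7 was at 10.1 and Mcm2 at 0.987 CPM per kilobase. Mcm7 shares 7.25% of its exonic base pairs with Ap4m1 on the other strand, and the part of shared reads in its level was not tested.

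Of the loading factors, Cdt1 had 24, 19 and 27 counts in control and 22, 20 and 25 in FR replicates, a log2 fold change of -0.19 ± 0.29. Cdc6, which with CDT1 loads the helicase, had 1, 7 and 3 against 3, 2 and 3 and was not tested. Gins2 (ENSMUSG00000031821.11, chromosome 8, 120578633 to 120589304) had 130, 285 and 304 counts in control and 134, 184 and 152 in FR replicates. Control replicate 1 lay among the FR F1 libraries. The log2 fold change was -0.74 ± 0.30 (edgeR adjusted p = 0.250), and without control replicate 1 it was -1.03 with an adjusted p of 0.0268. With no filter on low counts the adjusted p was 0.0101, and the highest over all settings was 0.533.

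Gins2 shares 2758 of its 4097 exonic base pairs (67.3%) with Gse1 on the other strand. Whether counting used strand is not known from the labels. Reads of the 2 genes may therefore not have been told apart. Gse1 had 71.5, 172 and 183 CPM in control and 77.8, 93.2 and 105 CPM in FR libraries, with control replicate 1 again the lowest control. Its log2 fold change was -0.63 ± 0.32 (edgeR adjusted p = 0.340). The level and fold change of Gins2 are uncertain for that reason. Other genes that share at least 10% of their exonic base pairs with the other strand were Kif20a (29.3%, with Cdc23), Ube2c (22.8%, with Tnnc2), Ccna2 (12.5%, with Exosc9) and Prc1 (11.1%, with Rccd1). Tnnc2 had 4 counts in all libraries. Cdc23 had a log2 fold change of -0.50 ± 0.19 (edgeR adjusted p = 0.236), with every FR F1 library below every control F1 library. Cdc23 and Kif20a were both lowest in FR replicate 3. Exosc9 and Rccd1 had -0.02 ± 0.25 and -0.11 ± 0.35. The part of shared reads in Kif20a, Ccna2 and Prc1 was not tested. The median log2 fold change was -0.20 without Gins2, Kif20a, Ube2c, Ccna2 and Prc1.

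**Figure D4:**
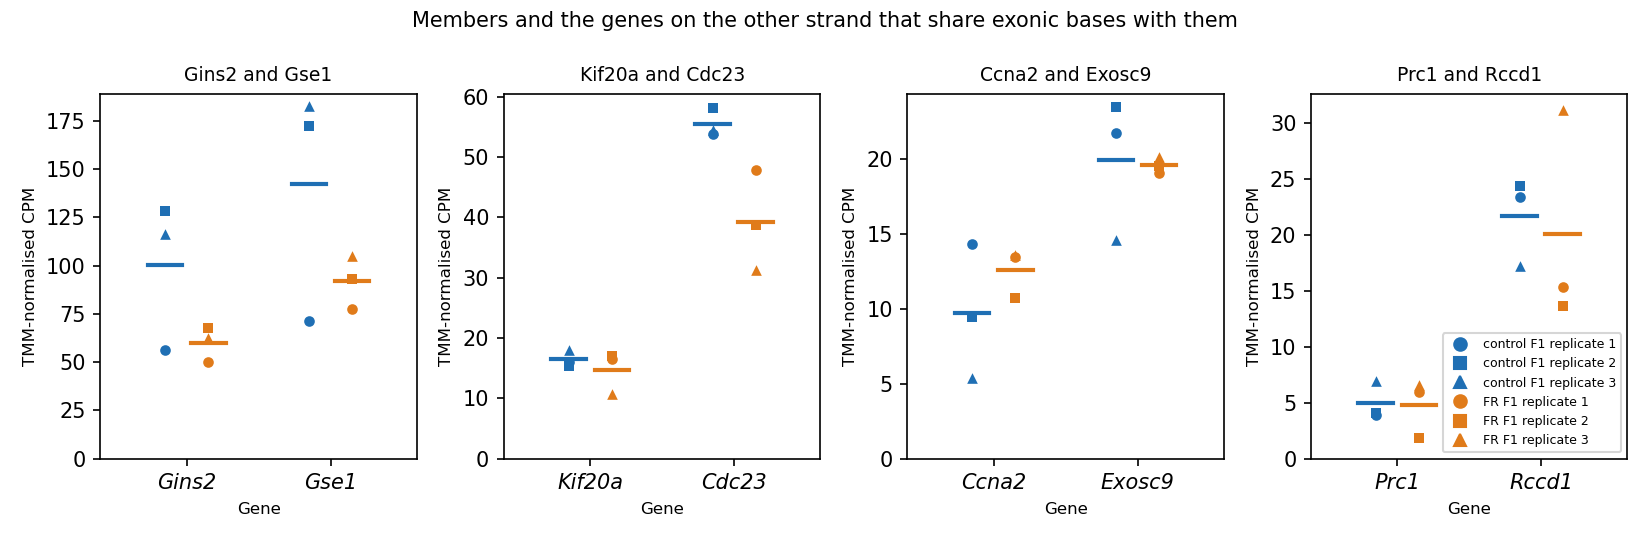
TMM-scaled CPM of Gins2, Kif20a, Ccna2 and Prc1 and of the gene on the other strand that shares exonic base pairs with each, in control F1 (blue) and FR F1 (orange) libraries, with bars for group means. Gins2 and Gse1 have the same lowest control library, replicate 1, at 56.4 and 71.5 CPM.

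All 4 clamp and nucleotide supply genes were tested, and none passed. Pcna (ENSMUSG00000027342.14, chromosome 2, 132249162 to 132253314) had 86, 83 and 68 counts in control and 73, 66 and 52 in FR replicates. In CPM this was 33.6 ± 6.51 against 24.3 ± 2.98, with FR replicate 1 at 27.3 above control replicate 3 at 26.1, and a log2 fold change of -0.46 ± 0.22 (edgeR adjusted p = 0.313). Tyms, the thymidylate synthase gene, had 48, 61 and 58 counts against 49, 71 and 45, a log2 fold change of -0.16 ± 0.24. The ribonucleotide reductase genes Rrm1, the large subunit, and Rrm2, the small subunit of dividing cells, had -0.02 ± 0.22 and -0.13 ± 0.35. Rrm1 had 46, 44 and 59 counts in control and 62, 58 and 41 in FR replicates.

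Of the transcription factors, E2f1 had 22, 18 and 15 counts in control and 22, 12 and 14 in FR replicates, a log2 fold change of -0.34 ± 0.37. Foxm1 had 13, 5 and 12 against 11, 5 and 7, a log2 fold change of -0.50 ± 0.49. Neither was separate between the groups. In the main edgeR fit the fold change was negative in all 14 tested S phase genes and factors, with a median of -0.26. With limma-voom sample weights it was positive for Mcm4 (0.24), Rrm1 (0.04), Rrm2 (0.02) and Foxm1 (0.02). The S phase genes and factors with Cdc6 but without Gins2 summed to 198 to 210 CPM in control and 154 to 181 CPM in FR libraries. The 23 G2 and M phase genes summed to 80.7 to 132 CPM in control and 79.6 to 119 CPM in FR libraries, and overlapped.

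**Figure D5:**
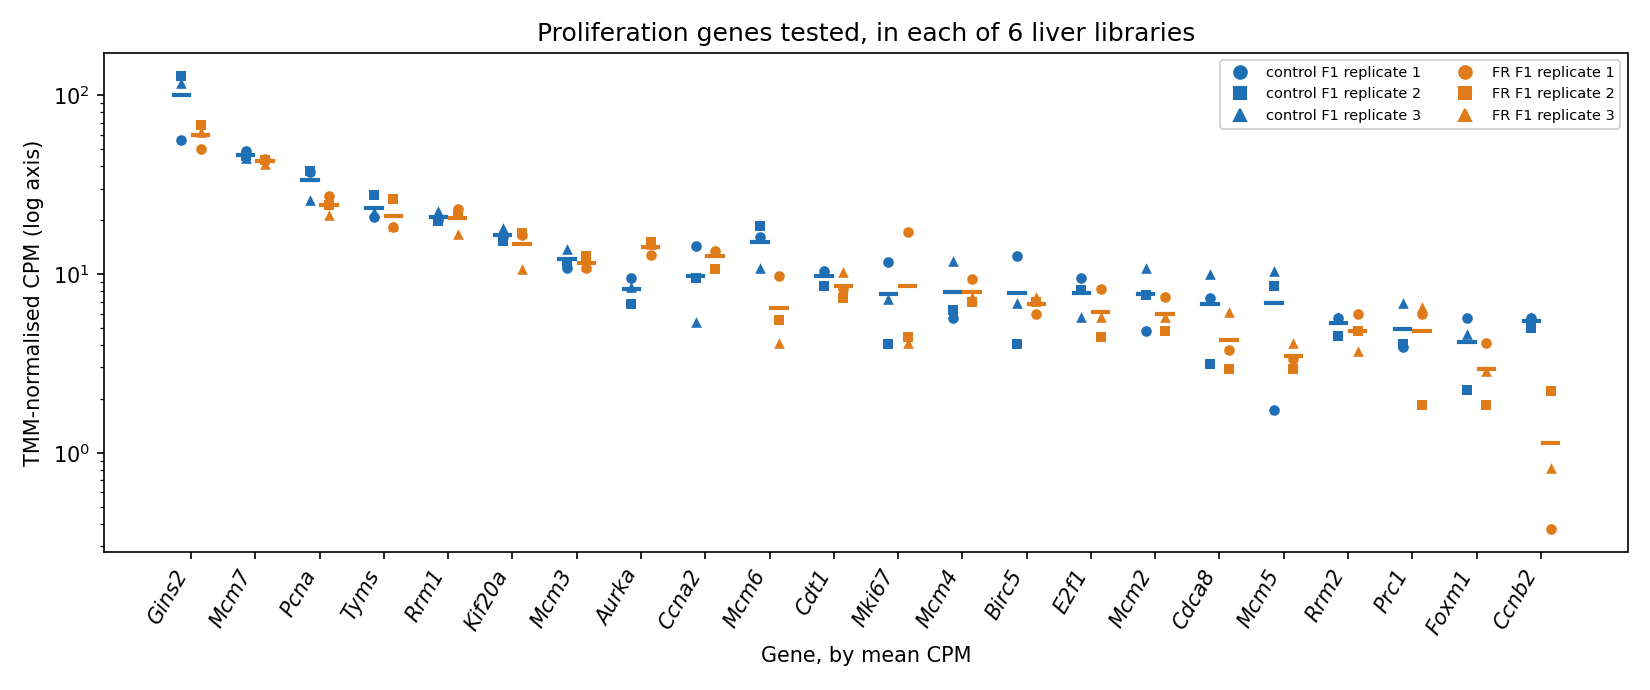
TMM-scaled CPM on a log axis of the 22 genes tested in each of the 6 libraries, ordered by mean level, control F1 blue and FR F1 orange, with a marker for each replicate number and bars for group means. Ccnb2, Mcm6 and Mcm7 lie lower and Aurka higher in every FR F1 library than in any control library, and Mki67 is highest in FR replicate 1 at 17.2 CPM.

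Wider lists of the same pathways were split about evenly in sign. Of 34 other S phase genes tested, 17 had positive and 17 negative fold changes, with a median of -0.002, and 0 passed (edgeR, 6 at an unadjusted p under 0.05). The smallest p were those of Mcm10, a replication initiation factor, at -0.79 ± 0.19 (edgeR adjusted p = 0.104), and of Ung, the uracil DNA glycosylase gene, at -0.85 ± 0.29 (adjusted p = 0.200). Mcm10 had 856, 886 and 625 counts in control and 496, 538 and 490 in FR replicates, with an adjusted p of 0.02845 by DESeq2 and 0.00736 by edgeR without control replicate 3. All 44 genes of this list summed to 1163 to 1248 CPM in control and 935 to 999 CPM in FR libraries, of which Mcm10 alone gave 240 to 399 and 185 to 201 CPM.

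Of 30 other G2 and M phase genes tested, 15 were positive and 15 negative, with a median of 0.04, and 0 passed (edgeR, 4 at an unadjusted p under 0.05). Gtse1, a G2 and S phase regulator of p53 and microtubules, had 19, 38 and 26 counts in control and 5, 7 and 9 in FR replicates, at -2.10 ± 0.43 (edgeR adjusted p = 0.0780; DESeq2 adjusted p = 0.0187). Tuba1b, an alpha tubulin gene, had 0.63 ± 0.16 (edgeR adjusted p = 0.128) and shares 22.7% of its exonic base pairs with Gm49450 on the same strand. Of 18 DREAM, E2F and Rb regulators tested, 10 were positive and 8 negative, with a median of 0.01, and 0 passed (edgeR, 2 at an unadjusted p under 0.05). The retinoblastoma gene Rb1 had 0.85 ± 0.33 (edgeR adjusted p = 0.236) and Lin52, a MuvB subunit, -0.56 ± 0.22 (adjusted p = 0.239). Limma-voom with sample weights called Mcm10, Ung, Gtse1, Tuba1b and Rb1, but not Lin52, in a fit that called 1199 of all 13022 genes. Without control replicate 1, edgeR gave an adjusted p of 0.0328 for Gtse1 and 0.0499 for Rb1, where it called 651 of 13469 genes.

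Markers of other liver cells, some of which divide, had summed levels that were separate between the groups for some lists and overlapped for others. Their part in the values of the proliferation genes was not tested. Among all tested genes, taken singly, 25.7% did not overlap between the groups. Summed levels lay above the control range in every FR F1 library for the sinusoidal endothelium (13 of 13 tested, 516 to 806 against 951 to 1127 CPM) and for stellate cells (12 of 12, 382 to 581 against 835 to 1021 CPM). The same held for B and plasma cells (4 of 11 tested, 42.8 to 80.5 against 93.2 to 180 CPM) and T and NK cells (1 of 13 tested, 14.9 to 23.4 against 27.3 to 38.6 CPM).

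Kupffer cell markers overlapped (13 of 13 tested, 385 to 768 against 517 to 991 CPM), and replicate 2 was the lowest library of each group there too, at 385 and 517 CPM. Cholangiocyte (2 of 7 tested) and erythroid markers (7 of 12 tested) also overlapped, at 43.3 to 138 against 71.4 to 94.0 and 224 to 497 against 480 to 569 CPM. Neutrophil and myeloid precursor markers (2 of 11 tested) were lower in every FR F1 library, at 44.2 to 73.9 against 11.4 to 25.4 CPM, of which Prtn3 gave 33.4 to 68.1 and 3.32 to 12.3 CPM. The other tested marker of that list, S100a9, had the opposite sign, at 1.24 ± 0.45 (edgeR adjusted p = 0.216). Hepatocyte markers (11 of 11 tested) had 5292 to 6129 against 4708 to 5464 CPM.

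A single marker passed the test, the stellate cell gene Pdgfra at 1.53 ± 0.26 (edgeR adjusted p = 0.0456), and the other settings gave it 0.00506 to 0.190. Its adjusted p was above 0.05 with limma-voom, with the replicate block and without control replicate 2 or 3 or any one of the FR F1 libraries. The most abundant markers reported from the lists had values of -0.22 for Cps1, 0.05 for Stab2, 0.24 for Clec4f, 0.71 for Ecm1, -0.17 for Spp1, 0.38 for Igkc, 0.23 for Cd4 and -2.60 for Prtn3 (log2 fold change). Alas2, that of the erythroid list, had 0.9955 ± 0.44 (SE), with control replicate 1 at 309 and FR replicate 1 at 308 CPM. Without control replicate 1 it was 1.83 (edgeR adjusted p = 0.0027), and its adjusted p was 0.0205 with sample weights and 1.26e-07 with no filter on low counts. Of the 7 tested erythroid markers 2 were negative, Klf1 at -2.15 ± 0.53 (edgeR adjusted p = 0.112) and Hbb-bt at -1.44 ± 0.61 (adjusted p = 0.267), whose reads may be split with near-identical globin copies. These and S100a9 are named after their values were seen. Prtn3 had an edgeR adjusted p of 0.0588, which was 2.03e-05 with DESeq2, 3e-13 with no filter, 0.0123 with sample weights, and 0.0276 and 0.0392 without control replicates 1 and 3. For Ecm1 it was 0.176, and 0.00244 with no filter, 0.0144 with sample weights and 0.0234 without control replicate 3. At 0 in some library were Lyve1 of the endothelial list, Cftr and Sctr of the cholangiocyte list, 6 T and NK cell, 4 erythroid and 7 myeloid markers. Among the T cell markers with a 0 were Cd3e and Cd3d of the receptor complex.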

How the data were processed

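The deposited file holds raw counts of reads for each gene in 6 liver libraries, 3 control F1 and 3 FR F1, with group and replicate taken from the titles and columns matched by the code in each description. Per the submitters' processing notes, STAR, StringTie, HTSeq and DESeq2 and the build mm10 were used, while their versions and roles, the strand setting and the handling of shared reads are unknown here. The labels name a TruSeq kit for DNA. Symbols and positions came from GENCODE M21, on the same assembly, for 53620 of 53715 genes.

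The test was that of edgeR 4.0.16 (R 4.3.3), with filterByExpr (minimum count 10, minimum total 15), TMM factors and quasi-likelihood F tests, two-sided, adjusted by Benjamini-Hochberg over 13022 genes. The standard error is the log2 fold change over the square root of F. Because the filter asks for counts in at least 3 libraries, a gene can pass through its higher group, as Ccnb2 did. A filter blind to the groups (30 counts in all) was therefore also run. Levels per length divide CPM by the union of annotated exons. Pooled ratios have exact 95% intervals for counting error. Totals of 2279755 to 2730160 counts limit the precision for most of the 38 genes, and the highest had 0.0779 counts per base pair of its longest transcript.

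Counts per library are given for the 12 tested members of smallest p, the 8 of highest CPM and others. The 2 genes of smallest p are named where no gene of a pathway list passed, and the most abundant gene and any that passed for each marker list. A cholangiocyte marker is not reported here and was left out of its list. The members and lists were chosen with earlier results of these data known. Alternatives were DESeq2 1.42.0, limma-voom (limma 3.58.1) with and without sample weights, 2 scalings, 2 filters, a replicate block, each library left out and another threshold.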

Additional observations from a re-analysis of the deposited data

How the results depend on the processing

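Members called higher were 0 in every alternative run. Members called lower were 2 without a filter on low counts (Ccnb2 and Gins2), 2 with limma-voom sample weights (Ccnb2 and Mcm6), 0 to 1 with a library left out (Gins2, without control replicate 1) and 0 in the others. The median log2 fold change of the 22 tested members stayed negative, from -0.28 to -0.09. Over all genes, 109 were called, against 1251 without a filter, 423 with DESeq2, 1199 with sample weights, 322 at an adjusted p under 0.1, and 7 to 651 with a library left out. These were 651, 17 and 159 without control replicates 1, 2 and 3, and 7, 11 and 45 without FR replicates 1, 2 and 3. With the filter of 30 counts in all, 30 members were tested and 0 called.

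The labels state no pairing by replicate number. Correlations of same-numbered deviations from the group means were -0.015, 0.105 and 0.148, and the others ran from -0.212 to 0.148. With 3 libraries a group, these values can neither show nor exclude a pairing. With the replicate block 21 genes and 0 members were called. Control replicates 2 and 3 correlated best with FR replicates 2 and 3, at 0.105 and 0.148, and control replicate 1 with FR replicate 2, at 0.148.

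Of 22 members, 13 kept their sign in every fit. Signs turned with sample weights for Birc5 (0.34), Mcm4 (0.24), Rrm1 (0.0385), Rrm2 (0.0216), Foxm1 (0.0206) and Spp1 (0.45), with limma-voom for Mki67 (-0.0432), Mcm4 (0.0348) and Spp1 (0.0204), and with the block for Mcm4 (0.039) and Spp1 (0.0295). With a library left out the values ran from -0.52 to 0.29 for Birc5, -0.83 to 0.58 for Mki67, -0.28 to 0.0316 for Kif20a, -0.33 to 0.33 for Prc1 and -0.16 to 0.0236 for Mcm3. They ran from -0.21 to 0.40 for Mcm4, -0.11 to 0.11 for Rrm1, -0.30 to 0.0324 for Rrm2, -0.038 to 0.12 for Stab2, -0.49 to 0.65 for Spp1, -0.13 to 0.64 for Igkc and -0.13 to 0.74 for Cd4. The cause was not tested. The median without genes that share exons with the other strand, -0.20, was added after seeing the data. Counts under 100 in 22 of 38 genes limit what could be detected.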
